A study of Mus musculus with 69 samples.

Results

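The 2 WT clones compared here are WT–mCherry and WT–emiRFP cells that grew together in the same WT + WT mosaic gastruloids and were separated by fluorescence-activated cell sorting at 48 h. All genes of the bulk RNA sequencing count table were used, and the comparison takes 6 of the 69 libraries of the series, 3 of each clone. Both clones come from E14Tg2A, a male mouse embryonic stem (mES) cell line, and both are WT for Trp53. WT–mCherry, labelled WT-mCh, carries the nuclear reporter H2B–mCherry under the EF1α promoter, and WT–emiRFP carries H2B–emiRFP670 under the CAG promoter, each inserted with the piggyBac transposon. Each line is the descendant of 1 sorted cell, so that a difference between the lines is a difference between 2 clones, and reporter, promoter, insertion sites and clonal history cannot be told apart. The clones were kept in serum with LIF before 150 cells of each were aggregated per well, in N2B27 medium without serum or LIF, and the 48 h samples received no further factor before collection. The same clones as mES cells at 0 h and sorted from WT + WT gastruloids at 72 h (6 libraries each), and WT–mCherry and p53KO–emiRFP cells sorted from WT + p53KO gastruloids at 48 h, serve below to show where the difference at 48 h stands. The 0 h libraries are titled as mES cell clones without a sort, so the 0 and 48 h samples may also differ in sorting, and by the study's methods purity was not checked after the sort of RNA samples.

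Mouse ES cells in serum and LIF hold a naive pluripotent state, which a network of factors around Nanog, Esrrb and the Klf proteins maintains. Once LIF is withdrawn, this network is shut off and a formative, later primed, state resembling the early epiblast follows, marked by Fgf5, Otx2 and Dnmt3b. In such cultures a small and changing fraction of cells passes through a 2-cell-like state, in which Zscan4 and other genes of the cleavage-stage embryo are transcribed. Imprinted genes are read mainly from 1 parental allele under the control of DNA methylation that is inherited through mitosis, and mES cell lines are known to differ from each other in these marks.

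The 6 libraries held 48159961 to 60166505 counts, 49840316 to 60166505 in WT–mCherry and 48159961 to 49301627 in WT–emiRFP, and 25287 to 26363 genes had at least 1 count in a library. Of 55367 gene symbols in the table, 32196 had a count in at least 1 of the 6 libraries. Values below are normalized counts, the raw counts divided by size factors of the median-of-ratios type. Changes are log2 fold changes, WT–mCherry over WT–emiRFP, with their standard errors, so that a positive value means more RNA in WT–mCherry cells. In bulk samples, fewer cells with a transcript and less RNA in each cell cannot be told apart. The p-values measure the spread between replicates. For a single value an exact unpaired permutation of 3 against 3 libraries has 0.1 as its smallest p, and a paired one has a larger smallest p.

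The sorted cells carried the transcripts that define epiblast-like cells. Dnmt3b, the de novo DNA methyltransferase, had 181512 to 189723 normalized counts in WT–mCherry and 188166 to 196893 in WT–emiRFP. Pou5f1 lay between 28615 and 34978 in all 6 libraries, and Sox2 between 7815 and 9206. Fgf5 (3802 to 4498) and Otx2 (5477 to 6564) were likewise abundant in both clones and their groups overlapped. None of these 5 markers passed the test between the clones, although Pou5f1 and Sox2 did with the replicate number as a block (edgeR adjusted p = 0.00016 and 0.00078, log2 fold change 0.15 each). Among markers of other cell types, Elf5 and Gata3 of the trophoblast and Nanos3 of primordial germ cells had between 1.15 and 16.1 normalized counts in the 6 libraries, and none of the defining markers was at 0 in any of them. Other members of these lists were more abundant, such as Kit at 705 to 1145 and Gata4 of the primitive endoderm at 145 to 261, and the summed level was 2567 to 3542 for the germ cell list and 4890 to 5518 for the trophoblast list.

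The 4 called genes with the largest absolute log2 fold changes were H2B genes. H2bc14, a histone H2B gene, had 64.6, 49.2 and 32.5 normalized counts in WT–mCherry replicates 1 to 3 and 8948, 7829 and 6081 in WT–emiRFP. The mCherry libraries were thus far below every emiRFP library. Their value was 0.722%, 0.628% and 0.534% of that in the emiRFP library of the same number, against 0.0729% for the group means in mES cells at 0 h. H2bc7 (log2 fold change −6.85 ± 0.20), H2bc3 (−4.99 ± 0.27) and H2bc21 (−4.61 ± 0.35) differed in the same direction. H2bc12, with means of 99.5 and 103, and H2bc4, with 211.2 and 212, were at like levels in both clones. Both clones carry an H2B fusion, and whether reads of a transgene count for an H2B gene of like sequence was not tested, so H2bc14, H2bc7, H2bc3 and H2bc21 are not read as endogenous expression.

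Across all genes, the clones differed in 1572 of 17662 tested genes (edgeR quasi-likelihood test, adjusted p below 0.05). WT–mCherry was higher for 832 genes, which is 4.71% of those tested, and lower for 740, which is 4.19%. Most differences were small. The median absolute log2 fold change of the called genes was 0.41, and 86.5% of them stayed under 1. Of the 212 genes with a log2 fold change of at least 1 in either direction, 180 were higher and 32 lower in WT–mCherry, and the median over all tested genes was 0.01. With the replicate number as a block, since both clones of a number came from the same gastruloids, 2924 genes were higher (16.6%) and 2174 lower (12.3%), among them all 1572. Without replicate 1 the count was 334, without replicate 2 it was 363 and without replicate 3 it was 980. These fits have fewer libraries and so less power, and the part of this in the loss was not tested.

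Several imprinted genes differed strongly between the clones. Mest, a member of the alpha/beta hydrolase family that is transcribed from the paternal allele (chr6:30723547-30748465 in GRCm38, plus strand), had 9149, 8691 and 8933 normalized counts in WT–mCherry and 623, 600 and 517 in WT–emiRFP. The groups were far apart, with the emiRFP value at 6.81%, 6.90% and 5.79% of the mCherry value of the same number. The log2 fold change was 3.94 ± 0.08 (edgeR adjusted p = 8.0e-14). H19, a long noncoding RNA known for expression from the maternal allele (chr7:142575529-142578143, minus strand), had 1315, 1253 and 1104 against 117, 146 and 60.0 (3.50 ± 0.33, edgeR adjusted p = 7.8e-06). Again every mCherry library exceeded every emiRFP library. Nnat, which encodes the membrane proteolipid neuronatin and lies within an intron of Blcap (chr2:157560078-157562522, plus strand), had 702, 660 and 532 against 117, 122 and 84.3 (2.55 ± 0.16). Plagl1, a zinc finger transcription factor on chromosome 10, had 177, 158 and 184 against 43.6, 28.7 and 26.5 (2.39 ± 0.17). Grb10, an adaptor that restrains growth factor receptor signalling (chr11:11930508-12038683, minus strand), went the other way, with 2538, 2500 and 3100 in WT–mCherry and 10251, 10437 and 12033 in WT–emiRFP. Its log2 fold change was −2.01 ± 0.08 (edgeR adjusted p = 3.1e-10), with no overlap between the clones.

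Of 48 genes in the imprinted list, 43 were tested, 16 were higher and 2 lower in WT–mCherry, and the median log2 fold change was 0.07. With the replicate block 18 were higher and 6 lower. The other members named here were chosen after their values were seen. Peg3 (0.91 ± 0.11) and its neighbour Usp29 (1.11 ± 0.11) on chromosome 7, Zdbf2 (1.25 ± 0.15), Zrsr1 (0.92 ± 0.07) and Impact (0.91 ± 0.07), all known as paternally expressed genes, were higher in WT–mCherry. At chromosome 2, the retrogene Mcts2 was higher (0.70 ± 0.06) while H13, the gene whose intron holds it, was lower (−0.61 ± 0.06), and because the strand setting of the counting is not given in the sources used here, overlapping genes may share reads. Slc38a4, Sfmbt2, Jade1, Ddc, Ppp1r9a and Peg10 were higher by 0.21 to 0.55. Other well known imprinted genes gave values near 0. Meg3 differed by 0.00 ± 0.11, Snrpn by 0.04 ± 0.09, Igf2r by 0.05 ± 0.09 and Cdkn1c by −0.07 ± 0.07, and none of them passed either with or without the block. The clone difference was already there in mES cells at 0 h for the leading genes. It was 4.29 for Mest, 3.32 for H19, 2.37 for Nnat, 2.59 for Plagl1 and −2.35 for Grb10, and none of these 5 differed between 0 and 48 h by the test of the difference (edgeR adjusted p from 0.21 to 0.84). Over the whole list the median shift from 0 to 48 h was −0.17, with 2 members called, both towards WT–emiRFP, and 5 towards WT–emiRFP with the block.

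Upstream windows of 3 of the imprinted genes with large differences, 2 higher and 1 lower in WT–mCherry, are shown, since methylation of CpG sites is the mark by which imprinted genes are set apart. Each run is the 250 bases before a RefSeq transcription start in GRCm38.p6, written in the direction of transcription, with CG dinucleotides in capitals. Of several windows of a gene, that with the most CpG sites was printed, among those without an annotated untranslated region. Mest is at chr6:30737800-30738049 (plus strand), Nnat at chr2:157559828-157560077 (plus strand) and Grb10 at chr11:12037421-12037670 (minus strand).
Mest: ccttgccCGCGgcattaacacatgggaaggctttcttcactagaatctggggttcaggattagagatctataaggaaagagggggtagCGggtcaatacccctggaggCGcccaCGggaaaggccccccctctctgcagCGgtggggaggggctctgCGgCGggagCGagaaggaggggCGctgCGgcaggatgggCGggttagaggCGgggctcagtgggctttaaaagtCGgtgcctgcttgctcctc
Nnat: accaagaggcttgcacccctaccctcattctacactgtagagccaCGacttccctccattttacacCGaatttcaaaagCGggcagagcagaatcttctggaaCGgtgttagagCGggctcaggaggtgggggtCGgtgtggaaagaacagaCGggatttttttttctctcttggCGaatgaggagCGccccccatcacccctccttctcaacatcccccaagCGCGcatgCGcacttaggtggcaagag
Grb10: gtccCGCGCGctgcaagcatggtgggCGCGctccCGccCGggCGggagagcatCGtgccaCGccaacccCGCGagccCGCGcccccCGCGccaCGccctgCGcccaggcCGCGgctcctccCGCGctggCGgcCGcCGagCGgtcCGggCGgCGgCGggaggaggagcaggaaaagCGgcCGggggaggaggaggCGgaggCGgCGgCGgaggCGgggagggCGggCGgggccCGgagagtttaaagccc
The windows of Mest and Nnat held 14 and 12 CpG sites and that of Grb10 held 40, against a median of 6 over 32851 windows with quartiles of 2 and 16. With the window of most CpG sites taken for each of 27025 genes, the median was also 6. Over 39 windows of the imprinted list the median was 14, and 11 over the 22 of members that were not called, so the values of Mest and Nnat were common ones for that list. The window of Nnat also holds an exon of Blcap. The hexamer TGCCGC, in which the imprint-maintaining zinc finger protein ZFP57 is known to bind methylated CpG, was searched on both strands. It occurred in 2 places before Mest and in no place before Nnat or Grb10. Of all windows 8.68% hold it, and 9.14% with 1 window a gene chosen by the most CpG sites. In the imprinted list 6 of the 39 windows hold it, and 3 of the 22 of members not called. Methylation itself was not measured in these libraries, and the counts do not separate the parental alleles. Zfp57 had 4012, 4294 and 3858 normalized counts in WT–mCherry and 2398, 2916 and 2672 in WT–emiRFP (0.61 ± 0.07), a gene picked after its values were seen.

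**Figure D1:**
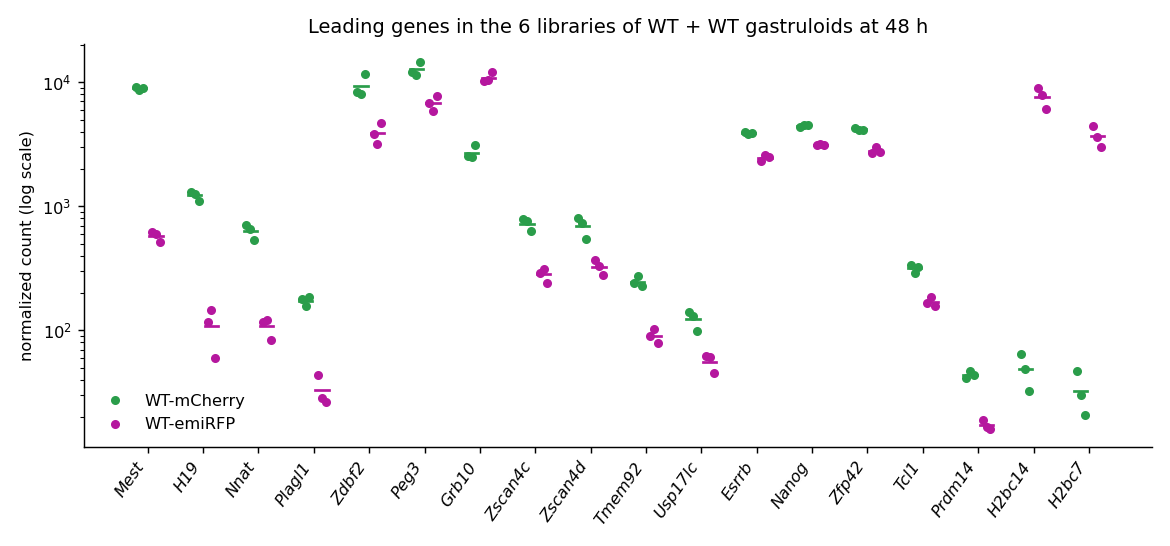
Normalized counts of 18 genes on a log scale in the 3 WT–mCherry (green) and 3 WT–emiRFP (magenta) libraries of WT + WT gastruloids at 48 h, with each group mean as a bar. The clones do not overlap for any of the genes shown, the separation is widest for the H2B genes H2bc14 and H2bc7 and for Mest, and Nanog, at 4385 to 4532 against 3110 to 3152, is among the narrow ones.

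Genes of the 2-cell-like state were higher in WT–mCherry as a group. Of 20 genes in that list 17 were tested, 15 were higher and none lower, and the median log2 fold change was 1.16 beside 0.01 over all genes. Zscan4c, a zinc finger gene that marks the state, had 784, 762 and 628 normalized counts in WT–mCherry and 292, 315 and 241 in WT–emiRFP (1.36 ± 0.12, edgeR adjusted p = 6.0e-06). Every mCherry library was above every emiRFP library, by more than the libraries of either clone differed among themselves. Zscan4a (1.40 ± 0.16), Zscan4f (1.40 ± 0.16) and Tmem92 (1.44 ± 0.12) gave like values, and the deubiquitinase genes Usp17la to Usp17le lay between 1.05 and 1.37. Members of the Zscan4 and Usp17l families are near-identical copies, so reads that fit several copies were not counted and the split between copies is uncertain. Levels were low throughout, with sums over the list of 4190 to 5575 normalized counts in WT–mCherry and 1962 to 2351 in WT–emiRFP. Leaving out replicate 1 or 2 left 7 and 6 of the 15 calls, and leaving out replicate 3 left 15. In mES cells at 0 h all 17 tested members were higher in WT–mCherry (median 1.10, where 8.59% of tested genes were higher and 11.2% lower), and no member differed between 0 and 48 h by the edgeR test of the difference (no member below an adjusted p of 0.05). At 72 h 2 members were higher, where 2.08% of tested genes were higher and 1.95% lower, and the median was 0.60.

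Several called genes lay side by side in clusters of such genes. The longest stretch of neighbours called in 1 direction covered 14 genes on chromosome 12 from 87480108 to 88274500, from Gm18983 to Gm5662, several of them predicted genes with an eIF1A domain. All 14 were higher in WT–mCherry, by 0.97 to 2.40 with a median of 1.65. Gm2016 had 236, 254 and 186 normalized counts against 71.8, 72.9 and 61.2, and Gm5662 had 415, 371 and 314 against 115, 138 and 108. The groups did not overlap for either gene. The second was the Zscan4 cluster on chromosome 7 from 10794242 to 11614112, with 10 genes higher by 0.98 to 1.42, pseudogenes included. Further stretches of 4 called genes held Tmem92 on chromosome 11 and Peg3, Usp29, Zfp264 and Aurkc on chromosome 7, all higher in WT–mCherry. By chromosome, medians of the log2 fold change ran from −0.01 to 0.05, the latter on X, and 6.45% to 10.7% of the tested genes of a chromosome were called.

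**Figure D2:**
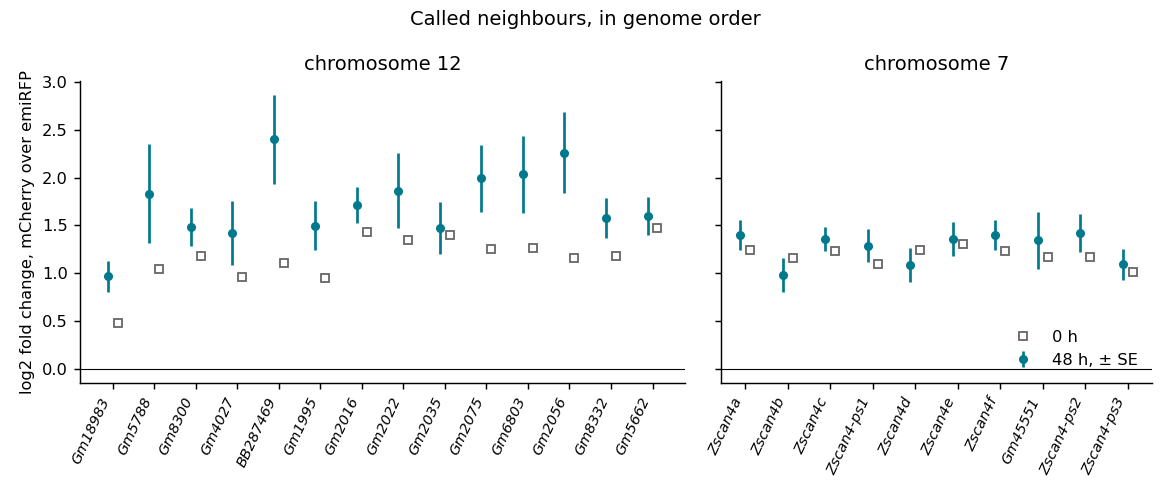
Log2 fold changes, WT–mCherry over WT–emiRFP, of the genes in the 2 longest stretches of called neighbours, on chromosomes 12 (14 genes) and 7 (10 genes), in genome order. Filled points are the values at 48 h with their standard errors and open squares those of the mES cell clones at 0 h, and all values at 48 h lie between 0.97 and 2.40.

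Most naive pluripotency factors were higher in WT–mCherry. Nanog, the homeodomain protein that sustains self-renewal, had 4385, 4494 and 4532 normalized counts in WT–mCherry and 3114, 3152 and 3110 in WT–emiRFP (0.52 ± 0.05, edgeR adjusted p = 4.4e-06). The libraries of a clone were close together and the clones did not overlap. Esrrb, an orphan nuclear receptor of the same network, had 3958, 3790 and 3886 against 2316, 2575 and 2489 (0.66 ± 0.06, edgeR adjusted p = 9.6e-06), and Zfp42, which encodes the stem cell marker REX1, had 4308, 4133 and 4148 against 2665, 3015 and 2733 (0.58 ± 0.06). Both again separated the clones without overlap. Tcl1, a coactivator of the kinase AKT, had 337, 292 and 324 against 165, 186 and 157 (0.91 ± 0.12). Prdm14, a repressor of FGF signalling and DNA methyltransferase genes, was rare, with 41.1, 47.3 and 43.3 against 18.8, 16.6 and 16.2 (1.35 ± 0.24). No overlap between the clones was seen for 14 of the 18 factors, and in either direction for 4850 of all 17662 tested genes. By the test 13 were higher and none lower, with a median log2 fold change of 0.52, beside 4.71% and 4.19% of all tested genes. The others were Klf2 (0.27 ± 0.10), Klf5 (0.00 ± 0.08), Tfcp2l1 (0.20 ± 0.13), Tbx3 (−0.01 ± 0.13) and Dppa3 (0.10 ± 0.15), of which Klf2 and Tfcp2l1 passed with the block. The summed level of the 18 factors was 58572 to 62905 normalized counts in WT–mCherry and 45209 to 45900 in WT–emiRFP. Without replicate 1 there were 8 calls, without replicate 2 there were 7 and without replicate 3 there were 11.

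These factors were at a small part of their mES cell level in both clones by 48 h. The group mean at 48 h was 1.81% to 55.7% of that at 0 h in WT–mCherry, with a median over the 18 factors of 8.87%, and 0.945% to 38.3% in WT–emiRFP, with a median of 5.49%. In mES cells the clones did not have the same order. There 1 factor, Tbx3, was higher in WT–mCherry (0.55), 5 were lower, and the median was −0.13. Of all tested genes 8.59% were higher and 11.2% lower at 0 h. Nanog had means of 41047 and 39189 in the mCherry and emiRFP clones at 0 h, and Esrrb of 46601 and 52261. The difference between the clones changed from 0 to 48 h for 10 of the 18 factors in the edgeR test of the difference, 9 towards WT–mCherry and Tbx3 the other way. Over all 19102 genes 2.72% shifted towards WT–mCherry and 1.62% towards WT–emiRFP. For Esrrb the shift was 0.82 ± 0.09 (adjusted p = 9.6e-05), for Tcl1 1.55 ± 0.13 (3.7e-06), for Spp1 0.95 ± 0.11 (9.2e-05) and for Nanog 0.45 ± 0.09 (0.0098). Esrrb, Tcl1 and Spp1 passed this test whichever replicate was left out, whereas 7, 3 and 6 of the 10 calls remained without replicates 1, 2 and 3, and Nanog did not pass whichever was left out (adjusted p from 0.063 to 0.25). At 72 h 12 of the 18 were higher in WT–mCherry and none lower, with a median of 0.54. At that time 2.08% of all tested genes were higher and 1.95% lower. The difference between 48 and 72 h was called for 0 of 19102 genes by edgeR (0%, with 785 at an unadjusted p below 0.05) and for 26 by DESeq2.

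**Figure D3:**
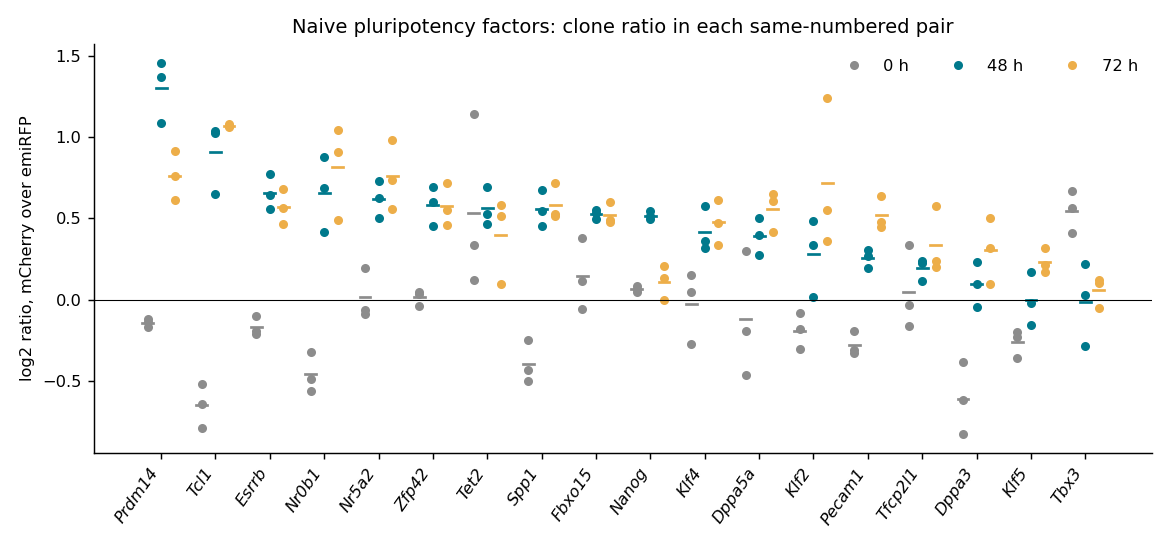
Log2 ratio of WT–mCherry over WT–emiRFP normalized counts (pseudocount 1) for each of the 18 naive pluripotency factors in the 3 same-numbered pairs at 0 h (grey), 48 h (blue) and 72 h (yellow), with the mean of the 3 pairs as a bar. Most factors are near or below 0 at 0 h and above 0 at 48 and 72 h, as for Tcl1, whose fitted log2 fold change is −0.64, 0.91 and 1.08 at the 3 times.

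The rest of the pluripotency programme differed less. Of 10 general pluripotency factors 2 were higher, among them Dppa4 (0.25 ± 0.05), and 8 with the replicate block, with a median of 0.13, but none without replicate 1 and 1 without replicate 2. None of 17 tested formative and primed factors passed, and their median was −0.04. With the block 3 were higher, Lef1, Grhl2 and Car4, and 5 lower, Pou3f1, Zic2, Sox3, Lin28b and Sall2, all by at most 0.17 in either direction. At 0 h Fgf5 had been higher in WT–mCherry (0.91), and this difference was gone at 48 h (−0.08 ± 0.05, shift −0.99 ± 0.27, edgeR adjusted p = 0.042). That shift did not pass without replicate 1 or 2 (0.29 and 0.40). Of 7 tested markers of primordial germ cells 4 were higher, among them Kit, the receptor of stem cell factor, with 1136, 1111 and 1145 normalized counts against 705, 732 and 748 (0.63 ± 0.06), and Dazl, a germ cell RNA-binding protein (0.59 ± 0.09), beside Prdm14 and Tfap2c (0.53 ± 0.14). Without replicates 1, 2 and 3 there were 3, 1 and 3 such calls. Of 32 tested germline and meiosis genes 10 were higher and 4 lower, with a median of 0.23. Hormad1 (0.80 ± 0.10), a meiotic chromosome axis protein, was higher, whereas Stag3, the meiotic cohesin subunit, had 1487, 1741 and 1035 in WT–mCherry against 3398, 3770 and 3203 (−1.28 ± 0.17). The X-linked Xlr genes were split, with Xlr5a and Xlr5c lower and Xlr3a and Xlr4a higher, and as near-identical copies they are uncertain, as are Tuba3a and Tuba3b. Without replicate 1 or 2 there were 3 or 2 higher members and 1 lower.

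Glycolysis and hypoxia response genes were higher in WT–mCherry where they were called. Of 24 members 9 were higher and none lower, the median log2 fold change was 0.17, and with the block 16 were higher and 1 lower. Ldha, lactate dehydrogenase A, had 104087, 103318 and 95944 normalized counts against 70607, 66391 and 64094 (0.59 ± 0.05, edgeR adjusted p = 2.6e-06). The clones did not overlap. Slc16a3, the lactate exporter MCT4 (0.53 ± 0.07), Slc2a3, the glucose transporter GLUT3 (0.47 ± 0.06), and Tpi1, triosephosphate isomerase (0.33 ± 0.05), followed. Leaving out replicate 1 or 2 left 3 and 4 calls, and Tpi1 lost its call without replicate 1 (adjusted p = 0.070). At 0 h 1 member was higher and 6 were lower in WT–mCherry, with a median of −0.12, beside 8.59% and 11.2% of all tested genes. At 72 h none was higher and 1 was lower, with a median of 0.08, beside 2.08% and 1.95% of all tested genes. In WT + p53KO gastruloids at 48 h, 4 were higher and 4 lower, where 12.5% of all tested genes were higher and 12.8% lower.

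The integrated stress response and antigen presentation lists leaned the other way. Of 20 stress response genes 3 were lower in WT–mCherry and none higher, with a median of −0.17, and 16 were lower with the block. Atf4, the transcription factor at the centre of that response, had 12804, 12724 and 13682 normalized counts against 17358, 18235 and 18067 (−0.45 ± 0.05, edgeR adjusted p = 1.6e-05). Nupr1 (−0.66 ± 0.09), a stress-induced nuclear protein, and Ppp1r15a (−0.35 ± 0.06), which encodes the eIF2α phosphatase subunit GADD34, were the other called members, of which Ppp1r15a did not pass without replicate 2 (adjusted p = 0.066). The same list was lower at 0 h by more, with 17 of 20 members called and a median of −0.63, where 11.2% of all tested genes were lower. Of the list, 7 members had a smaller difference at 48 h by the test of the difference, where 2.72% of 19102 genes shifted up and 1.62% shifted down. Of 21 tested genes of antigen presentation and the interferon response 6 were lower and 1, Ifitm1 (0.43 ± 0.09), was higher, with a median of −0.21 and 10 lower with the block. Psmb8, the immunoproteasome subunit, had 25.8, 17.0 and 18.7 against 54.2, 42.0 and 41.6 (−1.17 ± 0.23), and Tapbp (−0.39 ± 0.10) and Irf1 (−0.31 ± 0.08) were lower by less. No member was called without replicate 1 or without replicate 2.

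**Figure D4:**
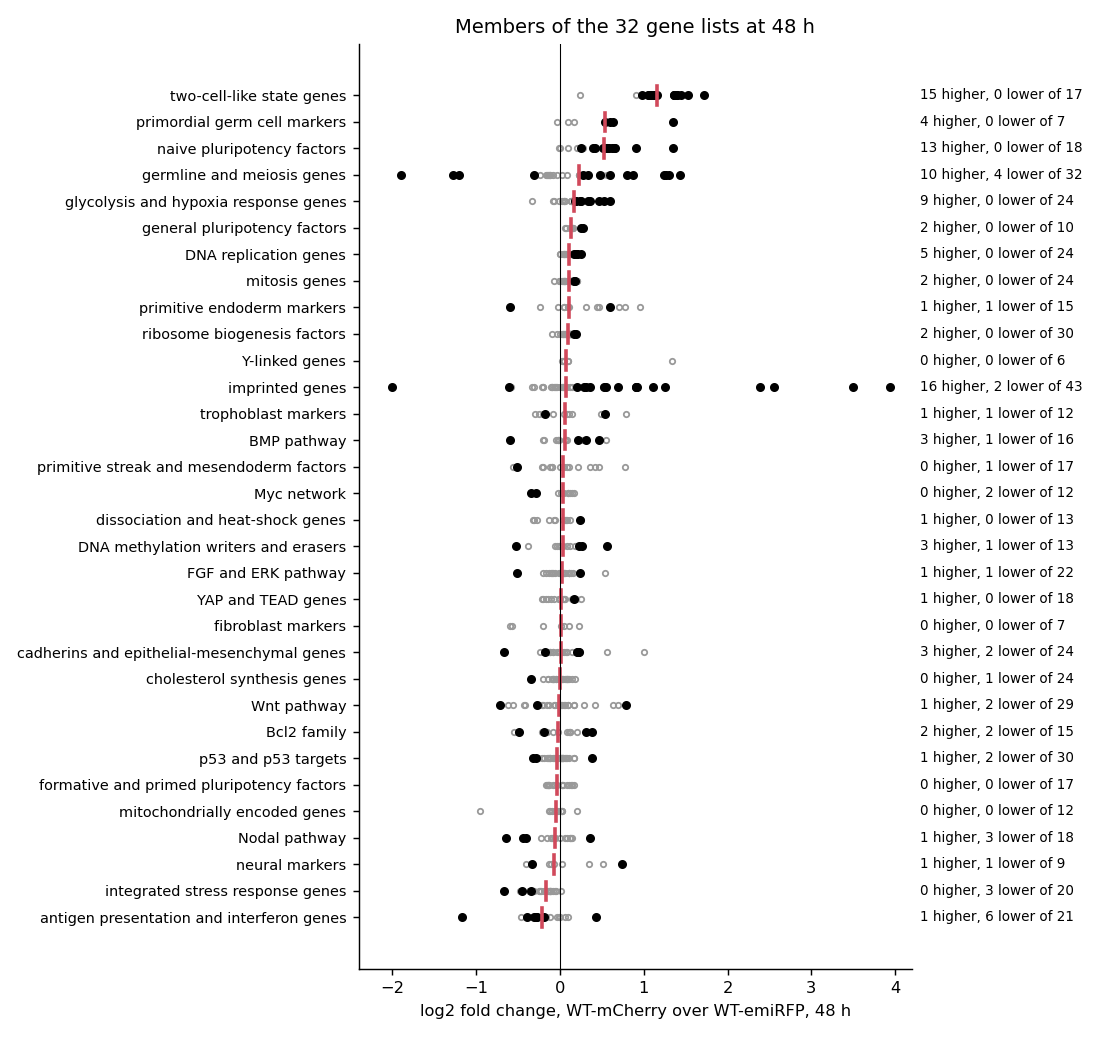
Log2 fold changes, WT–mCherry over WT–emiRFP at 48 h, of the tested members of 32 gene lists, 1 row a list, ordered by the list median (red bar). Filled points passed the edgeR test (adjusted p below 0.05) and open points did not. The 2-cell-like state genes have the highest median, 1.16, followed by primordial germ cell markers, 0.53, and naive pluripotency factors, 0.52, and the lowest is that of antigen presentation and interferon genes, −0.21.

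Few growth and cell cycle genes passed the test without the replicate block, where 4.71% of all tested genes were higher and 4.19% lower. With the block most DNA replication, mitosis and ribosome biogenesis genes were higher, beside 16.6% of all tested genes. Of 24 DNA replication genes 5 were higher, among them Rrm2, the small subunit of ribonucleotide reductase (0.25 ± 0.04), and the helicase loader Mcm10 (0.20 ± 0.04), and 17 with the block, with a median of 0.11. Of 24 mitosis genes 2 were higher, Aurka and Kif23, and 15 with the block (median 0.11). Of 30 ribosome biogenesis factors 2 were higher, Nop2 and Polr1b, and with the block 21 were higher and 1 lower (median 0.10). Without replicate 1 or 2 at most 1 member of these 3 lists was called. The Myc network had 2 lower members, Mxd4 (−0.34 ± 0.09) and Mycl (−0.28 ± 0.05), and 4 higher with the block, and without replicate 1 neither passed. Among 30 genes of p53 and its targets 1 was higher and 2 were lower, Cdkn1a, the inhibitor of cyclin-dependent kinases p21 (−0.29 ± 0.07), and Phlda3 (−0.32 ± 0.07), and with the block 2 were higher and 10 lower. Neither Cdkn1a nor Phlda3 passed without replicate 1 or 2 (adjusted p from 0.11 to 0.22). The higher member was Pmaip1, the BH3-only protein NOXA, with 8511, 8715 and 8495 normalized counts against 6597, 6347 and 6811 (0.38 ± 0.05). Trp53 itself gave 0.07 ± 0.05. Of the Bcl2 family, Pmaip1 and the survival factor Bcl2l1 (0.31 ± 0.06) were higher and Bid (−0.19 ± 0.04) and Bik (−0.49 ± 0.14) lower, and 4 and 6 with the block. Without replicate 1 or 2 Pmaip1 was the remaining call of the 4.

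Signalling pathways held few called members in number. Over all tested genes 4.71% were higher and 4.19% lower, and 16.6% and 12.3% with the block. In the Nodal pathway, the feedback inhibitors Lefty2 and Lefty1 were lower in WT–mCherry, Lefty2 at 970, 797 and 1032 normalized counts against 1443, 1357 and 1561 (−0.64 ± 0.09) and Lefty1 by −0.41 ± 0.12. Furin, a protease that activates Nodal, was lower (−0.44 ± 0.08), Gdf3, a ligand of the same receptors, was higher (0.35 ± 0.05), and Nodal itself gave 0.08 ± 0.07. Lefty1 and Furin did not pass without replicate 2 (adjusted p = 0.30 and 0.063), and the block gave 5 higher and 6 lower of 18. Of 29 tested Wnt pathway genes the ligand Wnt8a (−0.72 ± 0.09) and the secreted inhibitor Sfrp2 (−0.27 ± 0.06) were lower and Wnt5a (0.79 ± 0.19) higher, and 3 were higher and 4 lower with the block. Wnt5a did not pass whichever replicate was left out (adjusted p from 0.058 to 0.14), nor Sfrp2 without replicate 1 (0.19). For Wnt8a the difference had the opposite sign at 0 h (0.59). Of 22 FGF and ERK genes Fgf4 was higher (0.24 ± 0.04) and Fgf8 lower (−0.51 ± 0.15), with 6 and 3 by the block. Fgf8 did not pass whichever replicate was left out, nor Fgf4 without replicate 1 or 2 (adjusted p = 0.057 and 0.062). Of 16 BMP pathway genes Bmp7 (0.46 ± 0.12), Id2 and Smad1 were higher and Bmp8b (−0.60 ± 0.16) lower. No BMP pathway gene was called once any replicate was left out. Of 13 tested DNA methylation genes Uhrf1 (0.23 ± 0.04), Dnmt3l (0.27 ± 0.05) and Tet2 (0.56 ± 0.13) were higher and Uhrf2 (−0.52 ± 0.05) lower, and 6 and 2 with the block. Without replicate 1 or 2 only Uhrf1 and Uhrf2 of these 4 passed.

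Lists of other functions and cell types showed scattered calls. Cadherins and epithelial-mesenchymal genes had 3 higher and 2 lower members of 24, with Twist1 (−0.67 ± 0.12) the most different of the called ones. With the block 8 were higher and 2 lower, and without replicates 1, 2 and 3 there were 1, 0 and 2 calls. Heat-shock (Hsph1, higher) and YAP and TEAD genes (Ajuba, higher) had 1 call each and none without replicate 1 or 2, and with the block 2 were higher and 2 lower of the former and 3 and 3 of the latter. None of 12 tested mitochondrially encoded genes, 7 fibroblast markers and 6 Y-linked genes passed, and with the block 2 fibroblast markers were lower and 1 Y-linked gene was higher. Of 12 tested trophoblast markers Tfap2c was higher and Krt18 (−0.18 ± 0.05) lower, and their summed level was 4890 to 5329 normalized counts in WT–mCherry and 5186 to 5518 in WT–emiRFP. Of 15 primitive endoderm markers Gata4 was lower, with 159, 180 and 145 against 261, 260 and 212, and Pdgfra was higher, with 82.2, 70.0 and 62.0 against 43.6, 54.1 and 42.7. Their summed level was 26743 to 27548 in WT–mCherry and 24607 to 26344 in WT–emiRFP, most of it laminin and collagen transcripts. Of 9 tested neural markers Sox1 was higher (0.75 ± 0.20) and Map2 lower, with sums of 6515 to 7417 and 6442 to 7393, and of 17 tested primitive streak and mesendoderm factors Fgf8 was lower, with sums of 1405 to 1508 and 1473 to 1491. Fibroblast markers summed to 3182 to 3300 and 3174 to 3514. The calls named for trophoblast, primitive endoderm, neural and streak markers did not pass without replicate 1 or without replicate 2, and with the block 4 primitive endoderm and 2 neural markers were higher. The part of other cell types in the differences between the clones was not tested.

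Outside the lists, Abcc6, an ATP-binding cassette transporter, had 183, 226 and 220 normalized counts in WT–mCherry and 31.8, 24.3 and 25.4 in WT–emiRFP (2.95 ± 0.18). Eprn, a long noncoding RNA on chromosome 13, had 377, 259 and 308 against 94.2, 98.3 and 76.2 (1.80 ± 0.16). Neither gene showed overlap. Their history differed, since the clone difference at 0 h was 2.96 for Abcc6 and 0.28 for Eprn, and for Eprn the shift was 1.52 ± 0.24 (edgeR adjusted p = 0.0019, 0.071 without replicate 2). Nxf3, of the family of nuclear RNA export factors (1.68 ± 0.21), Eif4a3l2 (1.58 ± 0.16), Eif4a3l1 (1.53 ± 0.15), Gm8332, Gm5039, Gm8300 and Gm16478 followed among the largest positive differences of genes with a log2 mean CPM of at least 1, at 1.43 to 1.68. Among the genes lower in WT–mCherry at that level, after the H2B genes, Grb10 and Stag3 given above, were Gm43041 (−1.57 ± 0.17), the lysine-degrading enzyme Aass (−1.23 ± 0.17) and the Wnt receptor Fzd6 (−1.11 ± 0.15). Cdkn2a, the locus of p16 and ARF, had 274, 267 and 255 against 518, 529 and 524, and the libraries of each clone were tightly placed (−0.98 ± 0.12, edgeR adjusted p = 0.00010). Slc7a8, an amino acid exchanger (−0.97 ± 0.09), Catsperg1 (−0.96 ± 0.17), Gm48023, the bHLH-PAS factor Arnt2 (−0.93 ± 0.06) and Gm35082 followed among the negative ones. Catsperg1 did not pass without replicate 2 (adjusted p = 0.071), nor Gm48023 without replicate 1 or 2 (0.15 each).

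Set beside the mES cell clones, 278 of the 832 genes higher in WT–mCherry at 48 h (33.4%) were also higher at 0 h and 54 were lower. Of the 740 lower genes 370 (50.0%) were also lower at 0 h and 25 were higher. Among all tested genes 8.59% were higher and 11.2% lower at 0 h. These 278 and 370 genes made up 17.0% and 17.2% of all genes that were higher and lower at 0 h. At 72 h 258 of the 832 (31.0%) were higher and none lower, and 189 of the 740 (25.5%) were lower and none higher, which is 64.8% and 50.7% of the calls there. Among all tested genes 2.08% were higher and 1.95% lower at 72 h. The calls at the other times also fell when a replicate was left out. At 0 h they went from 3785 to 2126, 1033 and 2993 without replicates 1, 2 and 3, and at 72 h from 771 to 238, 90 and 403. The difference between 0 and 48 h itself was called for 828 of 19102 genes, 519 up and 309 down, and for 1447 with the block. Without replicates 1, 2 and 3 it was called for 175, 17 and 374. Pcdh18, Aadat, AV205837, Cd44 and Ptprt, which had the largest called shifts towards WT–emiRFP among genes with a log2 mean CPM of at least 1, were higher in WT–mCherry at 0 h by 1.13 to 1.68. Their log2 fold changes at 48 h, called or not, were −0.24 to −0.59.

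**Figure D5:**
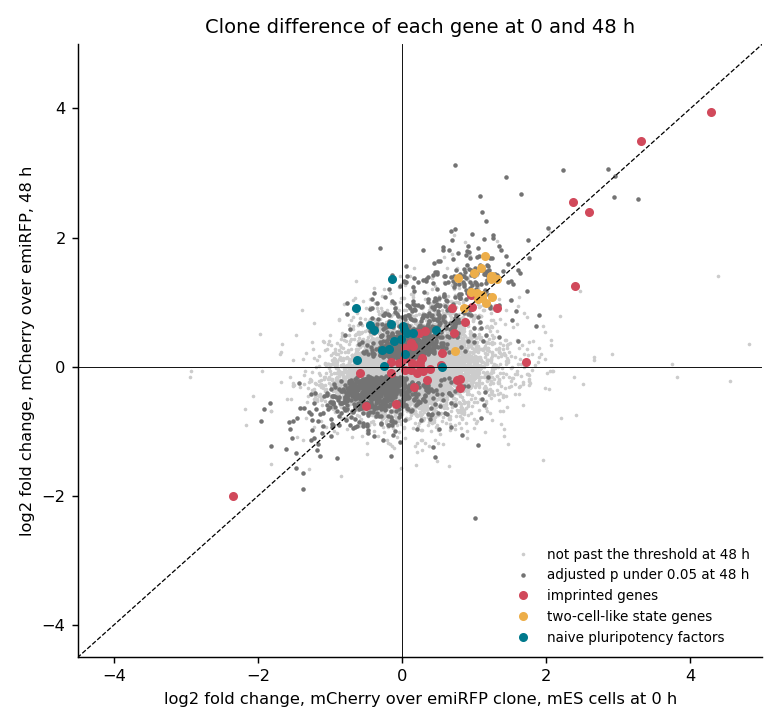
Log2 fold change, WT–mCherry over WT–emiRFP, at 48 h (vertical) against that of the mES cell clones at 0 h (horizontal) for 17560 genes tested in both, with the line of equal values dashed and 4 H2B genes outside the axes. The median of the 2-cell-like state genes (yellow) is 1.16 at 48 h and 1.10 at 0 h, that of the imprinted genes (red) 0.07 and 0.29, and that of the naive pluripotency factors (blue) 0.52 and −0.13.

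A further view comes from WT + p53KO gastruloids of the same time, in which 150 WT–mCherry cells had been aggregated with 25 cells of p53KO–emiRFP, a daughter clone of WT–emiRFP without p53. No library is shared, but the 2 populations differ in p53 as well as in clone, and there 12.5% of tested genes were higher and 12.8% lower in WT–mCherry. Mest differed by 4.06, H19 by 3.13, Nnat by 2.63, Plagl1 by 3.13 and Grb10 by −1.92 in that comparison, with the signs of WT + WT gastruloids. Of 17 tested 2-cell-like state genes 14 were higher there and none lower, with a median of 1.43. The naive factors had no such pattern, with 3 higher, 5 lower and a median of −0.12, Nanog at 0.51 and Esrrb at 0.22 being among the higher. The group means of these factors in WT–mCherry cells were lower beside p53KO than beside WT cells for all 18, for Nanog 3291 against 4470 and for Esrrb 2785 against 3878, which was not tested here. Of the 832 and 740 genes called in WT + WT gastruloids, 341 (41.0%) were higher and 59 lower, and 388 (52.4%) were lower and 52 higher, in WT + p53KO gastruloids.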

How the data were processed

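Bulk poly-A RNA had been sequenced in 69 libraries, 60 of them titled as sorted cells of mosaic gastruloids and 9 as mES cell clones at 0 h. The authors trimmed reads with Trim Galore 0.6.7, aligned them with STAR 2.7.11b to GRCm38.p6 with Gencode annotation and deposited raw counts of uniquely mapped reads per gene symbol, and the strand setting of the counting is not given in the sources used here. Unique mapping lowers the counts of near-identical copies. The 6 libraries compared here held 48159961 to 60166505 counts, and size factors (median of ratios over all 69 libraries) were 0.849 to 1.06.

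The clones were compared in R 4.3.3 with the quasi-likelihood test of edgeR 4.0.16, on genes kept by filterByExpr, in a fit of the 12 sorted libraries of 48 h (4 groups, 8 residual degrees of freedom), with Benjamini-Hochberg adjustment over all tested genes and a threshold of 0.05. Differences between times came from a fit of 18 libraries in 6 groups. The script was tested on simulated data. The replicate number was also fitted as a block. Same-numbered libraries of the clones came from the same gastruloids, and their deviations from the group means correlated at 0.442 to 0.626 over 13252 genes with a mean count of at least 50, against −0.415 to 0.0403 for other numbers, so the numbers were taken to pair the samples. Equal counts in 2 libraries of a group occurred in 0.694% of genes at most, so none was taken as a repeat.

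Gene lists and members were chosen with earlier results of these data known. Named genes were the 15 largest differences each way with a log2 mean CPM of at least 1, up to 4 called and 2 abundant members a list, the pluripotency factors, the 5 largest shifts from 0 h each way, H2B genes and the genes of the longest stretch, and others are said to have been picked later or stand in the account of their list. Of 55367 symbols, 53186 (96.1%) were placed once in Gencode on GRCm38. Alternatives were TMM, no low-count filter, DESeq2 1.42.0, other sets of libraries, a minimum fold change and leaving out each replicate. Some genes that met these rules are not reported here.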

Additional observations from a re-analysis of the deposited data

Results flagged for a closer look

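The clone difference at 48 h differed from that of the mES cells at 0 h, by the edgeR test of the difference with an adjusted p below 0.05, for the genes below, which were named by rule. Among pluripotency factors the log2 fold change of WT–mCherry over WT–emiRFP moved up by 1.55 for Tcl1, 1.49 for Prdm14, 1.10 for Nr0b1, 0.95 for Spp1, 0.82 for Esrrb, 0.61 for Nr5a2, 0.57 for Zfp42, 0.54 for Pecam1, 0.45 for Nanog and 0.32 for Dppa4. It moved the other way for Fgf5 (−0.99), Pou3f1 (−0.72) and Tbx3 (−0.55).

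Of other genes, H2bc14 moved by 3.06, from −10.36 to −7.31, Eprn by 1.52 and Pax6 by 1.38. Among genes with a log2 mean CPM of at least 1, shifts towards WT–emiRFP were those of Pcdh18 (−1.95), Aadat (−1.91), AV205837 (−1.88), Cd44 (−1.83), Ptprt (−1.72) and Slc7a8 (−1.17).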

How the results depend on the processing

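No named gene changed sign past the threshold in any alternative. The 1572 calls between the clones became 5098 with the replicate block, 5656 with the block in the 6 libraries alone and 212 with a minimum absolute log2 fold change of 1, and ranged from 334 to 980 without a replicate. The 828 shifts from 0 h became 1447 with the replicate block, 1323 by DESeq2, 1587 with all 69 libraries and 212 with the minimum, and ranged from 17 (without replicate 2) to 374. For the difference from 72 h, edgeR called 0 genes, DESeq2 26, no low-count filter 24 and all 69 libraries 4. In WT + p53KO gastruloids, with alternatives chosen after seeing the data, 4470 calls became 7708 with the replicate block, 756 with the minimum and 2431, 2620 and 3379 without replicates 1, 2 and 3. The 128 calls over the gene lists became 291 with the replicate block, 315 in the 6 libraries with it, 85 with all 69 libraries and 30 with the minimum, and 52, 47 and 101 without replicates 1, 2 and 3. Higher glycolysis genes numbered 16 with either replicate block, 3, 4 and 8 without replicates 1, 2 and 3 and 0 with the minimum, against 9. The minimum left 6 of the 16 higher imprinted genes and 1 of the 13 higher naive factors. Higher naive factors numbered 8, 7 and 11, and 2-cell-like genes 7, 6 and 15, without replicates 1, 2 and 3.

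Of 124 called named genes the block lost 0, TMM 2, DESeq2 7, no filter 9, the 6 libraries alone 17, all 69 libraries 31 and leaving out replicates 1, 2 and 3 lost 56, 67 and 28. The block gave a call to 38 of the 83 others and changed no other call. The depth limits what can be seen in genes at a few counts, such as Elf5 and Nanos3, which were not tested at 48 h.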
